A study of Drosophila melanogaster with 12 samples.

Results

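Drosophila melanogaster females that lacked the corpora allata but had an ovary were set against females that lacked a mature ovary but had their corpora allata, both of them forms of low fertility. The comparison took the 3 whole-female arrays of CAKO against the 3 arrays of ovoD mutant, 6 of the 12 arrays, over every gene measured by a probe set of its own, which gave 9968 genes that passed a filter on low values out of 11982. CAKO females carried Aug21-Gal4 and UAS-GFP, which mark and drive expression in the corpora allata, with UAS-NIPP1, an inhibitor of protein phosphatase type 1 that kills the gland. By the methods the gland was small or missing soon after eclosion, the females still laid some eggs, and ablation varied among females. The ovoD mutant females carried the dominant female-sterile allele OvoD1, which stops oogenesis before yolk is taken up, and kept intact corpora allata. CAKO_ovoD females had both, and wildtype females had neither. Those other 6 arrays entered the model and are given as levels beside the comparison. All flies were adult females labelled 15 days old, kept to 14 days in cages of 125 females by the growth protocol, and each array took RNA of 25 pooled whole females. The design text puts the controls in a mixed wDah/w1118 background, while the methods place the CAKO and wildtype arrays in wDah and the OvoD1 arrays in the mixed background. Genetic background and genotype therefore cannot be told apart between CAKO and ovoD mutant.

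Juvenile hormone (JH) is a sesquiterpenoid made by the corpora allata, and its last steps include the methyltransferase encoded by jhamt. In adult flies it promotes yolk protein synthesis in the fat body and yolk uptake by the oocyte, and it acts through the paired receptors Met and gce and their target Kr-h1. The ovary of a laying fly is a large part of the body and holds germ line cells, which make nearly all RNA of the egg, and follicle cells, which secrete the vitelline membrane and the chorion in the last stages. OvoD1 females keep a rudimentary ovary with germ line cells that stop early. In whole females, fewer cells of a type and less RNA per cell cannot be told apart.

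Values are log2 GC-RMA expression levels, and a difference is CAKO minus ovoD mutant on the log2 scale, with its standard error (SE) and its Benjamini-Hochberg adjusted p from limma. A gene was called at an adjusted p under 0.05 and a change of at least 1.5-fold. In CAKO, 2679 genes were higher than in ovoD mutant (26.9% of the 9968 tested) and 2403 were lower (24.1%). The 6 arrays did not overlap for 7349 genes (73.7%), so an absence of overlap was the usual case. Among called genes whose printed probe set passed the test itself, 1878 were at least 2-fold, 791 at least 4-fold and 61 at least 64-fold higher in CAKO, against 1558, 284 and 3 that were lower. Large differences thus lay mostly on the side of CAKO. The counts depended on the scale. Centring each array on its median moved the median difference by -0.39 and gave 1929 higher and 3534 lower genes, while centring on 20 muscle and photoreceptor genes moved it by +0.55 and gave 4082 higher and 1306 lower genes. The share of calls that were higher in CAKO was 52.7% as deposited, 35.3% after median centring and 75.8% after muscle and photoreceptor centring. Where a scaling turned the balance of a list described below, its counts are given.

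The arrays of each genotype were close to each other, with a median absolute difference to their replicates of 0.0391 to 0.0738 over all 12, and between 38.35% and 40.66% of probe sets lay at the floor, the lowest value of the arrays. The targets did not go against the labels. The level of jhamt was 3.26, 2.79 and 3.34 on the CAKO arrays, against 6.72, 6.66 and 6.56 on the ovoD mutant arrays. The level of ovo, the gene of the mutant allele and a germ line transcription factor, was 12.02, 12.07 and 12.09 in CAKO, against 8.22, 8.32 and 8.13 in ovoD mutant. Of the germ line markers, osk, aub and zpg were higher in CAKO, whereas vas read 2.51 on CAKO array 2 and lay at the floor on the other 5 arrays, so it told nothing apart. The male-specific transcripts SP, Acp26Aa, Acp36DE, Mst84Da, Mst87F and dj were low in all 4 genotypes. Of 5 tested male genes 1 was called, Mst84Dc, lower in CAKO by 0.66 (SE 0.18). The pigment gene y and the bristle gene f lay at the floor on every array.

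**Figure D1:**
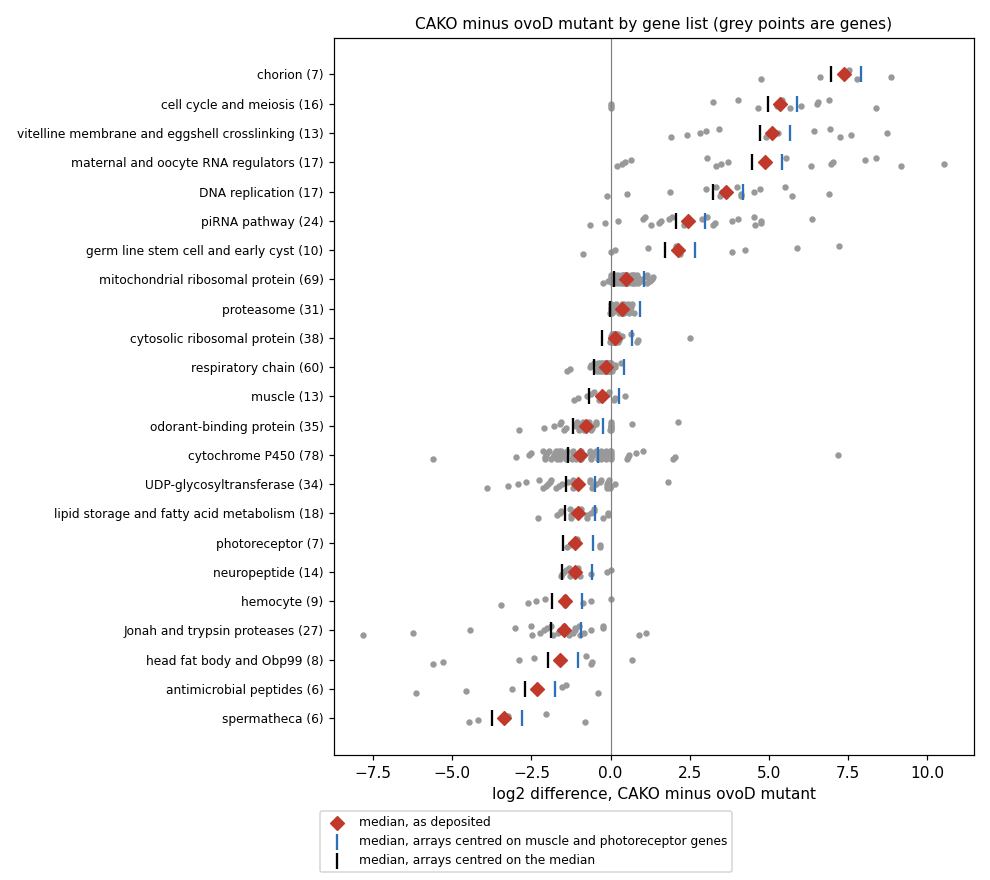
Log2 difference CAKO minus ovoD mutant (x axis) for 23 gene lists (rows, genes tested in brackets), with 1 grey point per gene and the list median as deposited (diamond) and under 2 other scalings (bars). The chorion list has the highest median, 7.37, and the spermatheca list the lowest, -3.36. The blue bars of the muscle and photoreceptor lists are set by centring on those same genes.

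Genes that localise or regulate maternal RNA were mostly higher in CAKO. Of 17 tested genes of this list, 14 were higher in CAKO and 0 lower, with a median difference of 4.88, against a median of -0.0001 over all genes. The largest difference of all was that of osk, the organiser of the germ plasm at the posterior pole of the egg. It read 13.74, 13.67 and 13.74 in CAKO and 2.36, 3.03 and 4.11 in ovoD mutant, a difference of 10.55 (SE 0.35, adjusted p = 1.31e-08), or 1499-fold. The ovoD mutant arrays were spread for this gene, whereas the CAKO arrays lay together and far above. BicC, an RNA-binding partner of the deadenylation machinery, read 12.82, 12.96 and 13.02 in CAKO and 2.69, 2.55 and 2.69 in ovoD mutant (difference 10.29, SE 0.20). The anterior determinant bcd was at 10.52, 10.56 and 10.68 in CAKO and at the floor on all ovoD mutant arrays, which makes it at least 338-fold higher. Its RNA is localised by the products of exu (difference 8.04, SE 0.07) and swa (6.95, SE 0.22), which were higher with it. The Pan gu kinase complex, which starts translation at egg activation, was higher as a set, with gnu at 9.19 (SE 0.12), plu at 7.04 (SE 0.14) and png at 5.55 (SE 0.10). BigH1, the linker histone of the early embryo, was at least 575-fold higher.

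**Figure D2:**
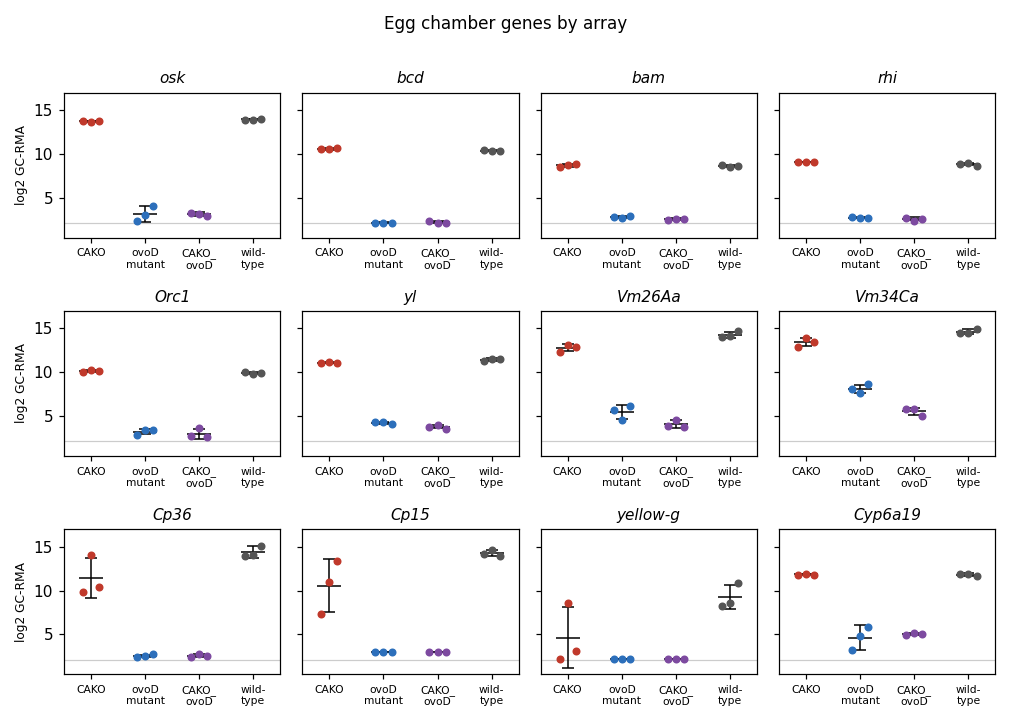
Log2 GC-RMA level (y axis, the grey line is the floor) of 12 genes on each array (points) of CAKO, ovoD mutant, CAKO_ovoD and wildtype, with mean and SD over 3 arrays (bars). All are egg chamber genes except Cyp6a19, a cytochrome P450 gene shown beside them. Apart from yellow-g, the CAKO and wildtype points lie above those of both OvoD1 genotypes, and the CAKO points of Cp36, Cp15 and yellow-g are spread widely.

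Genes of DNA replication, the cell cycle and meiosis followed the same direction. Of 17 tested DNA replication genes, 15 were higher in CAKO and 0 lower (median 3.64). Orc1, a subunit of the origin recognition complex, read 10.09, 10.22 and 10.16 in CAKO, against 2.88, 3.49 and 3.41 in ovoD mutant, a difference of 6.89 (SE 0.26, adjusted p = 2.51e-08). The sliding clamp PCNA, which every dividing cell uses, differed less (3.52, SE 0.11) and read 8.67 to 8.80 in ovoD mutant, well above the floor. Of 16 cell cycle and meiosis genes, 13 were higher and 0 lower (median 5.35). CycB3, a cyclin of meiotic anaphase, read 11.65, 11.68 and 11.74 in CAKO and 2.90, 3.03 and 3.98 in ovoD mutant, a difference of 8.38 (SE 0.24). Components of the synaptonemal complex, which pairs homologous chromosomes, were higher as well, with c(3)G at 8.57, 8.77 and 8.77 in CAKO and 3.37, 3.37 and 3.17 in ovoD mutant. Its partner c(2)M differed by 5.68 (SE 0.09). The centromeric histone gene cid was higher by 6.01 (SE 0.12), as was the securin gene pim, outside the list, by 7.64 (SE 0.22).

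Genes of the earliest germ line, whose cells OvoD1 does not remove at once, were higher in CAKO too, although several kept a level in ovoD mutant. Of 10 tested stem cell and early cyst genes, 6 were higher and 0 lower, with a median of 2.1. The cystoblast gene bam, which ends stem cell divisions, read 8.54, 8.70 and 8.92 in CAKO, against 2.85, 2.77 and 2.91 in ovoD mutant (difference 5.88, SE 0.11). The germ line gap junction gene zpg read 11.83, 11.81 and 11.89 in CAKO and 7.47, 7.62 and 7.73 in ovoD mutant, so its RNA was well above the floor in the sterile females. The difference for zpg was 4.23 (SE 0.15, adjusted p = 2.07e-08). The piRNA pathway, which silences transposons in the gonad, had 21 of 24 genes higher and 0 lower (median 2.45). The heterochromatin protein gene rhi, which licenses germ line piRNA clusters, read 9.08, 9.13 and 9.15 in CAKO and 2.79, 2.71 and 2.77 in ovoD mutant (difference 6.36, SE 0.10). The PIWI-family gene aub read 9.01, 8.96 and 9.06 in CAKO and 5.42, 6.19 and 5.53 in ovoD mutant, a smaller difference of 3.30 (SE 0.24).

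Many eggshell genes varied widely among the CAKO arrays. Of 7 tested chorion genes all 7 were higher in CAKO (median 7.37), and of 13 vitelline membrane and crosslinking genes 10 were higher and 0 lower (median 5.11). The chorion gene Cp7Fc (difference 4.75) did not pass the methods' t-test after Benjamini-Hochberg adjustment (adjusted p = 0.056). Cp36, a chorion protein of the late follicle cells, read 9.85, 14.10 and 10.35 in CAKO, against 2.49, 2.50 and 2.74 in ovoD mutant (difference 8.85, SE 0.94, adjusted p = 2.12e-05). Cp15 read 7.33, 10.98 and 13.31 in CAKO and 3.03, 2.99 and 2.99 in ovoD mutant (difference 7.54, SE 1.18). The array that was highest for Cp36 was therefore not the one that was highest for Cp15. The chorion genes differed by up to 5.98 between CAKO arrays, all of which stayed above every ovoD mutant array. The SD over the CAKO arrays was 2.32 for Cp36 and 3.01 for Cp15, and the wildtype means of 14.35 and 14.23 lay above all of them. The SE and p of these genes rest on a variance shared by all 4 genotypes. As the ovoD mutant arrays hardly varied, they understate the spread in CAKO.

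Several vitelline membrane and crosslinking genes varied less among the CAKO arrays. Vm26Aa, a vitelline membrane protein made in mid oogenesis, read 12.33, 13.10 and 12.89 in CAKO and 5.74, 4.62 and 6.19 in ovoD mutant (difference 7.26, SE 0.41). Vm34Ca read 12.93, 13.87 and 13.46 in CAKO, against 8.06, 7.68 and 8.62 in ovoD mutant, so that the ovoD mutant level was far from the floor. Pxt, a cyclooxygenase-like peroxidase of follicle cells, was tight in both genotypes, at 11.81, 11.94 and 11.88 in CAKO and 3.05, 3.09 and 3.25 in ovoD mutant (difference 8.75, SE 0.06). The members of this list that did not pass were yellow-g, yellow-g2 and Vm26Ac. The crosslinking genes yellow-g and yellow-g2 read 2.20, 8.64 and 3.08 and 2.16, 8.11 and 5.23 in CAKO, while both lay at the floor in ovoD mutant (adjusted p = 0.20 and 0.068). Both were high on CAKO array 2 and at the floor on CAKO array 1. Vm26Ac read 2.83, 4.80 and 4.59 in CAKO and lay at the floor in ovoD mutant (adjusted p = 0.056). Femcoat, an eggshell protein gene, passed at an adjusted p of 0.0139, but not in a fit of the 6 arrays alone (adjusted p = 0.084).

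Yolk genes differed in opposite directions. The oocyte receptor gene yl, which takes up yolk, read 11.06, 11.15 and 11.07 in CAKO and 4.30, 4.30 and 4.14 in ovoD mutant, a difference of 6.85 (SE 0.10, adjusted p = 1.54e-10). The yolk protein genes, expressed in the fat body and also in follicle cells, went the other way. Yp2 read 14.36, 14.65 and 14.37 in CAKO, against 15.76, 15.73 and 15.69 in ovoD mutant, a difference of -1.26 (SE 0.12), or 2.40-fold lower. Yp3 read 14.83, 15.16 and 14.85 in CAKO and 16.04, 16.09 and 16.04 in ovoD mutant (difference -1.11, SE 0.08), and lost its 1.5-fold call after muscle and photoreceptor centring (-0.56). Yp1 read 15.89, 15.98 and 15.87 in CAKO and 16.17, 16.17 and 16.20 in ovoD mutant, under 1.5-fold at -0.27 (SE 0.03). The yolk protein genes were near the top of the array scale, where the highest gene, RpL41, reached 16.41, and their folds are to be read with that limit. Against wildtype means of 15.14 for Yp2 and 15.62 for Yp3, the CAKO arrays all lay below and the ovoD mutant arrays all above, and the CAKO_ovoD means were 15.43 and 15.79.

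The largest difference among the JH genes was that of jhamt. The jhamt values given above amount to a difference of -3.52 (SE 0.22, adjusted p = 6.38e-07), or 11.5-fold lower in CAKO. The wildtype mean of jhamt, 4.65, stood between the genotypes, as did the CAKO_ovoD mean of 4.30. The mevalonate pathway enzymes upstream were divided. Mvd, the diphosphomevalonate decarboxylase, read 8.59, 8.43 and 8.44 in CAKO and 5.92, 6.03 and 5.23 in ovoD mutant (difference 2.76, SE 0.25), and Pmvk was higher by 1.29 (SE 0.18). Hmgs and Fpps, which act before and after them, differed by -0.15 (SE 0.02) and -0.07 (SE 0.04). None of the 3 tested breakdown genes, Jhe, Jheh2 and Jhedup, was called.

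Among 8 JH receptor and response genes 2 were higher and 3 lower (median -0.30), 2 and 5 after median centring, and 3 and 2 after muscle and photoreceptor centring, where the median turned to 0.25. The receptors Met and gce were not called, with differences of -0.10 (SE 0.17) and -0.49 (SE 0.22). The response factor Kr-h1 read 7.52, 7.72 and 7.69 in CAKO and 9.37, 9.11 and 9.13 in ovoD mutant, a difference of -1.56 (SE 0.23, adjusted p = 0.00018). The JH-inducible gene JhI-26 was lower as well, at 9.47, 9.28 and 9.21 in CAKO against 10.57, 10.95 and 10.95 in ovoD mutant (difference -1.50, SE 0.12). JhI-21, an amino acid transporter gene named for its induction by JH in cultured cells, ran in the opposite direction, at 10.67, 10.68 and 10.72 in CAKO and 8.98, 8.96 and 8.97 in ovoD mutant (1.72, SE 0.02). Fkbp39, a nuclear immunophilin that binds JH response elements, was higher by 2.05 (SE 0.08). The steroid receptor coactivator tai was lower by 0.92 (SE 0.14), a call lost after muscle and photoreceptor centring. Of 13 ecdysone genes 2 were higher, the nuclear receptors usp (1.05, SE 0.06) and ftz-f1 (1.06, SE 0.07), and 2 lower, the steroid hydroxylase Cyp18a1 and the transporter Oatp74D (-1.31, SE 0.05). This balance turned with the scale, to 2 higher and 4 lower after median centring and 4 higher and 2 lower after muscle and photoreceptor centring. Cyp18a1 lost its call under the latter (-0.38).

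**Figure D3:**
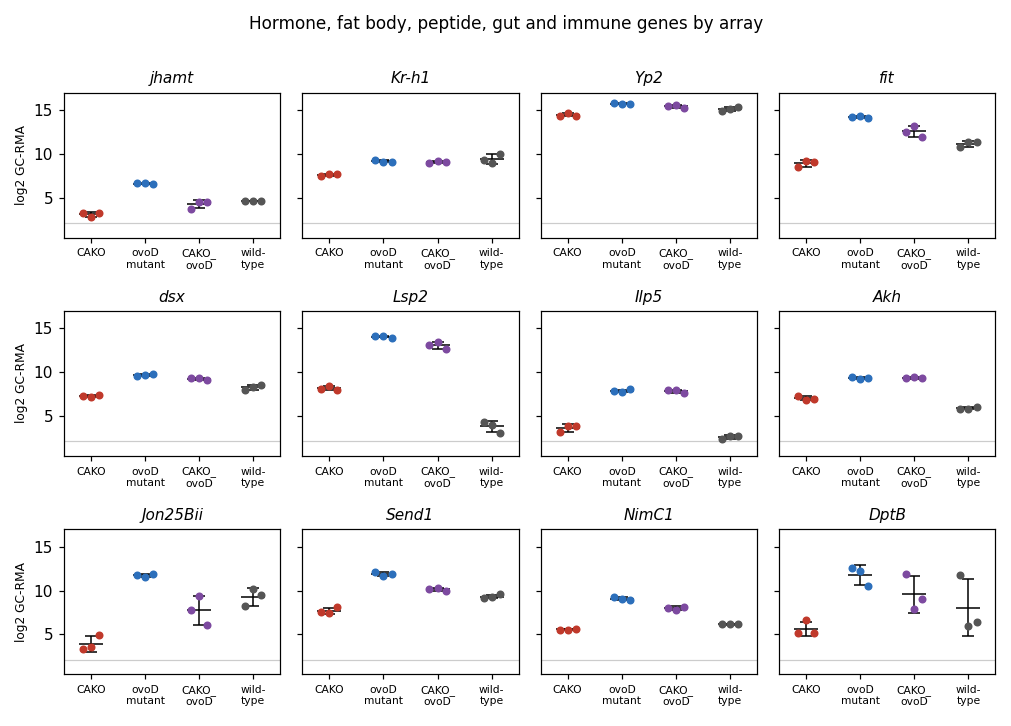
Log2 GC-RMA level (y axis, the grey line is the floor) of 12 hormone, fat body, peptide, gut and immune genes on each array (points) of CAKO, ovoD mutant, CAKO_ovoD and wildtype, with mean and SD over 3 arrays (bars). For all 12 genes the 3 CAKO points lie below the 3 ovoD mutant points, and Lsp2 is near 4 in wildtype.

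Several fat body genes were far lower in CAKO. Lsp2, a larval serum protein that stores amino acids, read 8.06, 8.50 and 8.04 in CAKO and 14.09, 14.16 and 13.95 in ovoD mutant, a difference of -5.87 (SE 0.30, adjusted p = 1.81e-07), or 58.4-fold lower. Both genotypes were above the wildtype mean of 3.84, and CAKO_ovoD was at 13.06. The other fat body markers differed from it, with Fbp1 at the floor on all 6 arrays and Yp1 near the top of the scale. The list of head fat body, sex-specific and Obp99 odorant-binding protein genes had 7 of 8 members lower and 0 higher (median -1.59). After muscle and photoreceptor centring 4 were lower and 1 higher. The Obp99 members are counted again in the odorant-binding protein list below. The female-biased satiety gene fit read 8.53, 9.24 and 9.05 in CAKO and 14.21, 14.33 and 14.14 in ovoD mutant (difference -5.28, SE 0.31), with wildtype between them at 11.16. Cyp4d21, a cytochrome P450 first known as male-specific, lay at the floor in CAKO and read 7.86, 8.14 and 7.63 in ovoD mutant, at least 48.9-fold apart. Its wildtype mean was 2.35 and its CAKO_ovoD mean 3.74, so the high level was found in ovoD mutant. The sex determination gene dsx read 7.29, 7.19 and 7.37 in CAKO and 9.60, 9.69 and 9.79 in ovoD mutant (difference -2.41, SE 0.14), with a wildtype mean of 8.30.

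RNA of lipid storage and fatty acid metabolism genes was mostly lower in CAKO, with 13 of 18 genes lower and 0 higher (median -1.03). After muscle and photoreceptor centring 8 were lower and 0 higher. The adipokinetic hormone gene Akh, the fly counterpart of glucagon, read between 6.87 and 7.32 in CAKO and 9.44, 9.26 and 9.40 in ovoD mutant (difference -2.30, SE 0.11, adjusted p = 1.24e-07). The wildtype mean of Akh, 5.92, was below all of these arrays. Its receptor gene AkhR was lower by 1.58 (SE 0.08). The lipid droplet protein gene Lsd-1 read 10.65, 10.86 and 10.81 in CAKO, against 12.56, 12.42 and 12.41 in ovoD mutant (difference -1.69, SE 0.13). The phosphatidate phosphatase gene Lpin was lower by 1.61 (SE 0.11) and mdy, which makes triglyceride, by 1.25 (SE 0.07). The summed linear level of the 18 lipid genes was 118470 to 121600 in CAKO and 175480 to 181610 in ovoD mutant. In wildtype it was 114920 to 124210, a range that held the CAKO values. Of 10 glycogen, trehalose and sugar genes 5 were lower and 0 higher, led by the gluconeogenic fbp (-1.34, SE 0.10), which turned to 2 higher and 1 lower after muscle and photoreceptor centring (median -0.06). Of 12 maltase and amylase genes 4 were lower and 1 higher (median -0.26), a direction that flipped to 5 higher and 2 lower after muscle and photoreceptor centring.

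The insulin-like peptides were among the genes that differed in opposite directions. Ilp5, made in the median neurosecretory cells of the brain, read 3.19, 3.94 and 3.95 in CAKO and 7.84, 7.79 and 8.05 in ovoD mutant, a difference of -4.20 (SE 0.21, adjusted p = 1.63e-07). Ilp2, from the same cells, read 6.46, 6.69 and 6.69 in CAKO and 8.89, 8.63 and 8.87 in ovoD mutant (difference -2.19, SE 0.11). Ilp8, a relaxin-like peptide also known from follicle cells, read 9.50, 9.66 and 9.78 in CAKO, against 4.52, 3.59 and 4.61 in ovoD mutant (difference 5.40, SE 0.25). The receptor and the downstream factor were close, with foxo at -0.17 (SE 0.10) and InR at -0.15 (SE 0.14), neither called. Of 14 neuropeptide genes 12 were lower in CAKO and 0 higher (median -1.14), with 7 lower after muscle and photoreceptor centring. Dh31, a diuretic hormone of gut and brain, read 7.21, 6.97 and 6.85 in CAKO and 8.49, 8.68 and 8.50 in ovoD mutant (difference -1.55, SE 0.16). The called members ran from -1.56 for Burs, a hormone of wing expansion, to -0.61 for Lk, the leucokinin gene, and Crz and SIFa were not called. The summed linear level of the 14 neuropeptide genes was 2245.1 to 2286.4 in CAKO and 5643.4 to 5718.4 in ovoD mutant. In wildtype it was 1999.2 to 2258.4, which overlapped with CAKO. Of 7 photoreceptor genes 5 were lower and 0 higher (median -1.11), and all 7 were lower after median centring. The light-activated channel gene trp was lower by 1.11 (SE 0.09). For muscle 5 of 13 were lower and 0 higher (median -0.28), and 8 were lower and 0 higher after median centring (median -0.67). Centring on the muscle and photoreceptor genes fixes the balance of these lists by construction and says nothing of them. The summed linear level of the 13 muscle genes was 39151 to 41821 in CAKO and 43869 to 46745 in ovoD mutant, and that of the 7 photoreceptor genes 32525 to 35775 in CAKO and 44388 to 46694 in ovoD mutant. The part of these lower sums in the differences of brain, eye and gut genes was not tested.

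Digestive protease genes gave the deepest single falls. Of 27 Jonah and trypsin genes 23 were lower and 2 higher (median -1.48), and 17 lower and 2 higher after muscle and photoreceptor centring. Jon25Bii, a serine protease of the midgut, read 3.30, 3.57 and 4.98 in CAKO and 11.76, 11.59 and 11.94 in ovoD mutant, a difference of -7.81 (SE 0.83, adjusted p = 2.08e-05), or 225-fold lower. Its neighbour Jon25Bi read 4.19, 5.58 and 5.59 in CAKO and 11.38, 11.33 and 11.40 in ovoD mutant (difference -6.25, SE 0.57). These genes are close copies of each other, so their probe sets may share signal. Wildtype stood between, at 9.29 for Jon25Bii and 8.30 for Jon25Bi. Jon66Cii was also lower, at 4.14, 4.58 and 3.04 in CAKO against 8.55, 8.40 and 8.16 in ovoD mutant, but its wildtype mean of 4.04 was at the level of CAKO. The uncharacterised genes CG13078, CG43085, CG17192, CG5246, CG2772, CG33109, CG9616, CG13403 and CG6296 were also among the 15 largest falls. CG13078 lay at the floor in CAKO and was at least 59.4-fold lower, and the others ran from -5.88 (SE 0.42) for CG43085 to -4.82 (SE 0.59) for CG6296.

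Detoxification families leaned toward ovoD mutant. Of 78 cytochrome P450 genes 46 were lower in CAKO and 5 higher (median -0.96), and 36 lower and 8 higher after muscle and photoreceptor centring. The exception in size was Cyp6a19, which read 11.79, 11.94 and 11.82 in CAKO and 3.19, 4.87 and 5.90 in ovoD mutant, a difference of 7.19 (SE 0.54, adjusted p = 1.86e-06), with wildtype at 11.80. Cyp4d1 was lower by 2.98 (SE 0.10). Of 34 UDP-glycosyltransferase genes 21 were lower and 1 higher (median -1.03), led by Ugt50B3, which read 4.57, 4.94 and 4.66 in CAKO and 8.70, 8.67 and 8.53 in ovoD mutant (difference -3.91, SE 0.13). Of 33 glutathione S-transferase genes 16 were lower and 5 higher, with a median of -0.50 that turned to 0.05 after muscle and photoreceptor centring. GstD10 read 3.30, 3.35 and 3.29 in CAKO, against 7.31, 6.98 and 7.12 in ovoD mutant (difference -3.82, SE 0.16). The peroxiredoxin gene Prx6c was lower by 2.94 (SE 0.18), whereas the extracellular superoxide dismutase gene Sod3 was higher by 1.69 (SE 0.08). Of 35 odorant-binding protein genes, small secreted carriers, 21 were lower and 1 higher (median -0.78), and 7 lower and 2 higher after muscle and photoreceptor centring.

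Immune and reproductive tract genes were lower in CAKO as well. Of 9 hemocyte genes 8 were lower and 0 higher (median -1.44), and 6 and 0 after muscle and photoreceptor centring. The summed linear level of the 9 was 4173.4 to 4413.8 in CAKO and 8524.1 to 9494.5 in ovoD mutant. In wildtype it was 3564.5 to 4511.3, a range that held the CAKO values. NimC1, a phagocytosis receptor of plasmatocytes, read 5.57, 5.54 and 5.68 in CAKO and 9.25, 9.04 and 8.91 in ovoD mutant (difference -3.47, SE 0.11, adjusted p = 7.64e-09), and the clotting gene Hml was lower by 1.44 (SE 0.12). Of 6 antimicrobial peptide genes 3 were lower and 0 higher. Among the 3, Def (-1.42) lost its call in a fit of the 6 arrays alone (adjusted p = 0.10). It was also lost when any 1 of the CAKO arrays was left out. DptB read 5.16, 6.60 and 5.15 in CAKO and 12.62, 12.27 and 10.46 in ovoD mutant, a difference of -6.15 with a wide error (SE 1.60, adjusted p = 0.0076). Mtk read between 8.58 and 9.03 in CAKO, against 14.06, 13.17 and 13.10 in ovoD mutant (difference -4.57, SE 1.17). The ovoD mutant arrays were not alike for these peptides, since AttD read 9.0, 4.80 and 5.18 and CecB 6.25, 2.65 and 2.16. Both were high on ovoD mutant array 1 and were not called. The receptors of bacterial cell wall, the peptidoglycan recognition proteins, had 5 of 7 genes lower and 0 higher, led by PGRP-SB1 (-3.36, SE 0.57).

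All 6 spermathecal genes were lower in CAKO (median -3.36), and 5 of 6 after muscle and photoreceptor centring. Send1, a secreted protease of the sperm storage organ, read 7.57, 7.44 and 8.09 in CAKO and 12.08, 11.62 and 11.93 in ovoD mutant, a difference of -4.18 (SE 0.19, adjusted p = 9.06e-08). CG17239, of the same organ, read 5.31, 6.02 and 6.72 in CAKO, against 10.51, 10.27 and 10.69 in ovoD mutant (difference -4.47, SE 0.34). Wildtype lay between the genotypes for both, at 9.32 for Send1 and 8.26 for CG17239. Send2 and CG17234 were at the floor in CAKO and read 5.54, 4.84 and 6.10 and 5.70, 4.66 and 6.88 in ovoD mutant, at least 9.45-fold and 11.1-fold apart. The call of Send2 was lost without ovoD mutant array 3 (adjusted p = 0.055). In wildtype these last genes were also near the floor, at 2.26 and 2.24.

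The counts for general cell machinery depended heavily on the scale. Of 38 cytosolic ribosomal protein genes 5 were higher in CAKO and 0 lower, against 1 higher after median centring, where the list median was -0.26, and 34 higher after muscle and photoreceptor centring. The member with the largest difference was RpS5b, a paralog known for its germ line expression, at 14.89, 14.90 and 14.87 in CAKO against 12.24, 12.36 and 12.54 in ovoD mutant (difference 2.51, SE 0.12). Of 69 mitochondrial ribosomal protein genes 26 were higher and 0 lower (median 0.49), with 6 higher and 1 lower after median centring and 64 higher and 0 lower after muscle and photoreceptor centring. Of 31 proteasome genes 6 were higher and 0 lower, with 0 called after median centring and 26 higher after muscle and photoreceptor centring. Of 60 respiratory chain genes 4 were lower and 0 higher (median -0.13), while 26 were lower and 0 higher after median centring and 6 higher and 2 lower after muscle and photoreceptor centring. The small heat shock proteins stood out, with Hsp26 at 13.14, 13.12 and 13.22 in CAKO and 7.37, 6.87 and 7.16 in ovoD mutant, a difference of 6.03 (SE 0.15, adjusted p = 2.79e-09). Hsp27 differed by 5.40 (SE 0.17), and both are known to be made in the ovary without heat.

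With all 4 genotypes the difference can be written exactly as a sum. The ovary part is the mean of wildtype and CAKO minus the mean of ovoD mutant and CAKO_ovoD, and the corpora allata part is the mean of CAKO and CAKO_ovoD minus the mean of wildtype and ovoD mutant. The ovary part was called higher for 2764 genes (27.7%) and lower for 2579 (25.9%), and the corpora allata part for 282 (2.83%) and 202 (2.03%). As the methods place the backgrounds, the ovary part runs along the difference of genetic background and cannot be told apart from it. The corpora allata part compares genotypes within each background. No label names an array with the driver or UAS-NIPP1 alone. Loss of the gland and the insertions that bring it about therefore cannot be told apart in this part. Among the higher genes whose printed probe set passed, the ovary part was the larger for 2628 of 2652, with a median of 1.44 beside a median corpora allata part of -0.01. Among the lower genes it was the larger for 2289 of 2354, with a median of -1.27 beside 0.04. For fit the ovary part was -3.36 and the corpora allata part -1.93 (SE 0.22), and for dsx they were -1.68 and -0.72 (SE 0.10). In Vm34Ca and Vm26Aa the parts had opposite signs, since Vm34Ca split into an ovary part of 7.17 and a corpora allata part of -1.87 (SE 0.23), and Vm26Aa into 8.73 and -1.47 (SE 0.29). For Lsp2 the ovary part of -7.54 exceeded the whole difference and the corpora allata part was 1.67 (SE 0.22). That part averages unlike effects, since loss of the corpora allata moved Lsp2 by 4.36 with the ovary and by -1.01 without it (adjusted p of the difference = 0.00040). By the methods these effects come from different backgrounds, so ovary and background cannot be told apart in their difference.

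**Figure D4:**
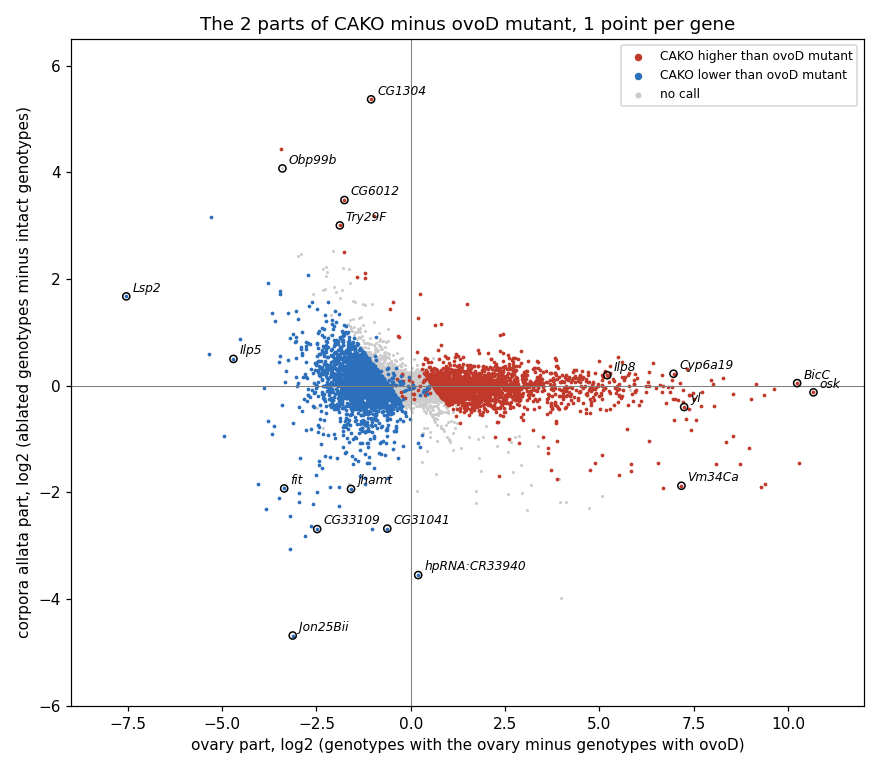
Ovary part (x axis) against corpora allata part (y axis) of the log2 difference CAKO minus ovoD mutant, 1 point per gene, coloured by the call and with 18 genes named. The cloud runs along the x axis, and the named genes away from it include CG1304 at a corpora allata part of 5.37 and Jon25Bii at -4.68.

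In a minority of genes the corpora allata part was about as large as the ovary part, or larger. It was at least as large for 24 genes that were higher in CAKO and 65 that were lower, ties included. The genes named here were picked after their values were seen. Near-equal parts also arise by arithmetic where ovoD mutant alone stands apart. CG4835 was such a gene, with parts of -0.98 and -0.98 and a CAKO minus wildtype difference of -0.0045. The jhamt difference was divided into -1.93 (SE 0.16) from the corpora allata part and -1.58 (SE 0.16) from the ovary part, and that of Kr-h1 into -0.94 (SE 0.16) and -0.63 (SE 0.16). For Kr-h1 the effect of corpora allata loss was -1.77 with the ovary and -0.10 without it (adjusted p of the difference = 0.021), so -0.94 describes neither. Background differed along with the ovary here too. The hairpin RNA gene hpRNA:CR33940 read 4.81, 3.51 and 3.65 in CAKO and 7.30, 7.29 and 7.44 in ovoD mutant, a difference of -3.35 (SE 0.35). Its ovary part was 0.20 (SE 0.25), with wildtype at 7.07 and CAKO_ovoD at 3.33, so that it was low in both genotypes without the gland. CG31041 read 8.35, 8.49 and 8.31 in CAKO and 11.75, 11.71 and 11.59 in ovoD mutant, with parts of -2.68 (SE 0.12) and -0.62 (SE 0.12). Jon25Bii split into -4.68 (SE 0.58) and -3.13 (SE 0.58), and Jon25Bi into the near-equal -3.06 and -3.20 (SE 0.40 each). The alkaline phosphatase genes Alp9 and Alp10 had corpora allata parts of -1.69 (SE 0.15) and -1.73, with differences of -3.05 and -2.93.

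On the other side, CG1304, a predicted serine protease, read 7.43, 6.98 and 7.52 in CAKO and 2.68, 3.28 and 3.01 in ovoD mutant, a difference of 4.31 (SE 0.19, adjusted p = 6.61e-08). Its corpora allata part was 5.37 (SE 0.13) and its ovary part -1.05 (SE 0.13), and its mean was 9.17 in CAKO_ovoD and 2.75 in wildtype. The protease gene Try29F read 10.31, 10.57 and 10.21 in CAKO, against 9.18, 9.45 and 9.10 in ovoD mutant, with parts of 3.00 and -1.88. CG6012 had the same form, at 6.31, 5.91 and 6.20 in CAKO and 4.63, 4.75 and 3.88 in ovoD mutant, with parts of 3.48 and -1.76. For both the wildtype mean, 7.24 for Try29F and 2.86 for CG6012, was below all 6 arrays. The maltase gene Mal-B1 was higher by 1.10 (SE 0.15) with a corpora allata part of 1.58, the only maltase called higher, and Cyp6a17 was higher by 1.96 (SE 0.29) with parts of 1.72 and 0.25.

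**Figure D5:**
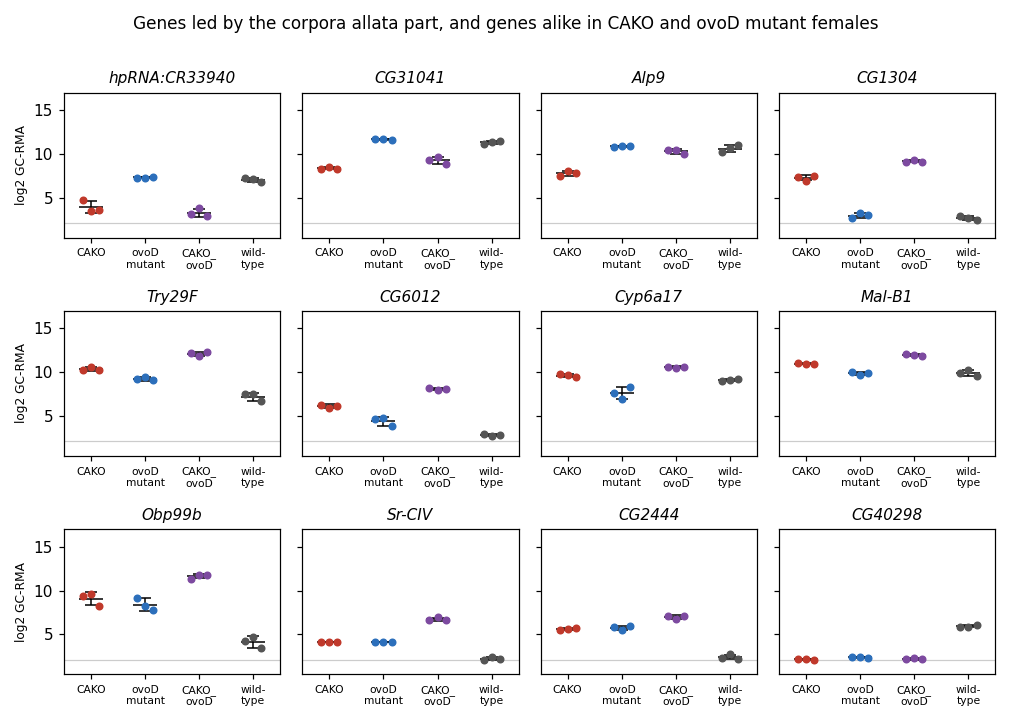
Log2 GC-RMA level (y axis, the grey line is the floor) of 12 genes led by the corpora allata part or alike in CAKO and ovoD mutant, on each array (points) of CAKO, ovoD mutant, CAKO_ovoD and wildtype, with mean and SD over 3 arrays (bars). CG1304 is high and hpRNA:CR33940 low in both genotypes without the gland, while Sr-CIV, CG2444 and CG40298 are at nearly the same level in CAKO and ovoD mutant and differ in wildtype.

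Some genes were within 1.5-fold of each other in the low-fertility genotypes and differed in wildtype, although not all of them were equal. They were chosen for that pattern, and CAKO and ovoD mutant share the wildtype arrays as controls, so the levels are a description. The 95% interval of the difference lay within 1.5-fold for 3839 genes in all. Sr-CIV, a scavenger receptor gene, read 4.16, 4.13 and 4.16 in CAKO and 4.16, 4.19 and 4.16 in ovoD mutant, with a wildtype mean of 2.25 and a CAKO_ovoD mean of 6.74. CG2444 read 5.53, 5.64 and 5.71 in CAKO and 5.80, 5.51 and 5.95 in ovoD mutant, with wildtype at 2.45. CG12998, CG16898, Lectin-galC1 and AOX1 were higher than wildtype in the same way, with differences between CAKO and ovoD mutant of -0.09, -0.19, -0.14 and -0.44. The arrays did not overlap for AOX1 (adjusted p = 0.00019). In the opposite direction CG40298 read 2.16, 2.19 and 2.15 in CAKO and 2.47, 2.41 and 2.35 in ovoD mutant, with a wildtype mean of 5.94. Its CAKO and ovoD mutant arrays did not overlap either (difference -0.24, adjusted p = 0.0097). The cuticle protein gene Cpr47Eg, CG7465, CG10953 and CG13679 were also near the floor in both genotypes and at 4.28, 4.60, 4.42 and 3.89 in wildtype. Obp99b, an odorant-binding protein gene outside this set because its interval was wider, read 9.34, 9.60 and 8.27 in CAKO and 9.18, 8.27 and 7.75 in ovoD mutant. The arrays overlapped (difference 0.67, SE 0.48, adjusted p = 0.27), while wildtype was at 4.16 and CAKO_ovoD at 11.64.

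A few genes could be read in 1 of the genotypes alone. For 34 higher genes all ovoD mutant arrays lay at the floor, and in 29 of these so did CAKO_ovoD. For 38 lower genes all CAKO arrays lay at the floor, and in 32 so did wildtype. In 7 of the 38 wildtype and CAKO_ovoD were both at the floor, so the RNA was above the floor in ovoD mutant alone. The largest difference among the 7 was that of CG4835, which lay at the floor in CAKO and read 4.26, 3.72 and 4.29 in ovoD mutant, at least 3.88-fold apart. Its CAKO and CAKO_ovoD arrays had an SD of 0 at the floor. The shared variance therefore understates the spread of its ovoD mutant arrays (SD 0.32), and no p is given for it. The nuclear receptor gene Hr38 was at the floor in CAKO and read 4.31, 3.41 and 3.47 in ovoD mutant, at least 2.97-fold apart. The phagocytosis receptor relative NimC2 (3.00 to 3.5 in ovoD mutant) and CG9826 (2.97, 3.85 and 3.45) belonged with them. Cyp6g2, CG5883 and Muc68Ca lay near the fold threshold, at -0.62, -0.59 and -0.69. Without ovoD mutant array 2 the calls of Cyp6g2 (-0.48) and Muc68Ca (-0.53) were lost, and that of Muc68Ca was also lost without ovoD mutant array 1 (-0.51) or any 1 of the CAKO arrays (adjusted p = 0.064). The reverse was seen for CG13032, at 3.95 to 6.0 in CAKO and at the floor in ovoD mutant, CAKO_ovoD and wildtype, and for CG5245. Such genes passed the filter on low values only through the genotype in which they were high. They were picked after their values were seen.

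The called genes were not spread evenly over the chromosomes. On the X, 504 of 1584 genes were higher in CAKO (31.8%) and 328 lower (20.7%), while the 4 arms of the large autosomes had between 25.5% and 26.4% higher and between 22.7% and 26.6% lower. On the fourth chromosome 11 of 65 genes were higher (16.9%) and 29 lower (44.6%). Genes of 1 chromosome are not independent, and no test was made of these shares.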

How the data were processed

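The authors normalized 12 Affymetrix Drosophila Genome 2.0 arrays with GC-RMA (no version is stated in what was read) and deposited log2 values, taken here unchanged. Of 18952 probe sets, 183 controls were dropped. By the platform annotation 13647 probe sets name 1 gene, 402 several and 4903 none, and 13544 matched the RefSeq gene table. A filter removed 4992 probe sets whose mean was within the lowest quartile of every genotype, and 13777 stayed. Genes low in 3 genotypes pass through the one where they are high.

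The model was limma's (version 3.58.1, R 4.3.3; lmFit, eBayes with a trend), with 1 coefficient per genotype, 12 arrays and 8 residual degrees of freedom. P-values are two-sided, with Benjamini-Hochberg adjustment across the 13777 probe sets. A gene counts as called where at least 1 probe set passed and none passed the other way, which set aside 41 genes. For a gene with several probe sets, the brightest on average is printed. Levels within 0.2 of the floor on all arrays of a genotype give a bound, written as at least N-fold. An exact permutation test of 3 against 3 arrays cannot go below 0.10 and was not used. The methods describe the 3 arrays of each genotype as biological replicates independent of each other, and their number limits the precision.

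The comparison and the 42 gene lists were chosen with earlier results of these data known. Named by rule were jhamt, ovo and the stock markers, the 15 largest differences each way without overlap, up to 4 called members of each list with the largest change, the members of the chorion, vitelline membrane, yolk, JH and larval storage lists, and up to 6 genes each way that were alike in CAKO and ovoD mutant and called the same way against wildtype. Other list members were picked after their values were seen. The stock markers w and v, and list members without a probe set of their own, are not analysed here. The model was tested on simulated data with the same normal spread in every genotype and with changes added only away from the floor. That test says nothing of genes at the floor or of genes whose spread differs between genotypes. Figures were drawn with matplotlib 3.10.9 in Python 3.11.15.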

Additional observations from a re-analysis of the deposited data

Results flagged for a closer look

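For 26 genes whose corpora allata and ovary parts were of interest, the effect of corpora allata loss was compared between females without and with a developed ovary, that is, CAKO_ovoD minus ovoD mutant less CAKO minus wildtype, in the same limma model with adjustment over all probe sets. The effects differed for 9 of them at an adjusted p under 0.05, with no fold threshold. This makes the single corpora allata part of these 9 genes an average of unlike effects. As the methods place the backgrounds, females with and without the ovary also differed in genetic background. Ovary and background cannot be told apart in this comparison. Many of the 26 were picked after their values were seen, and the share over all genes was not counted. The count of 9 therefore describes these genes alone. For Lsp2 the difference between the effects was -5.37 (adjusted p = 0.00040), with an effect of -1.01 without the ovary and 4.36 with it. For Cyp4d21 it was -4.05 (adjusted p = 0.00043), with -4.14 without the ovary and -0.08 with it. Kr-h1 had a difference of 1.67 (adjusted p = 0.021), with -0.10 without the ovary and -1.77 with it. Vm32E, a vitelline membrane gene, had 1.94 (adjusted p = 0.037). The alkaline phosphatase genes Alp9 and Alp10 had 2.24 (adjusted p = 0.0053) and 1.73 (adjusted p = 0.010). CG1304 had 1.62 (adjusted p = 0.012), Cyp6a17 had 2.40 (adjusted p = 0.013) and Mal-B1 had 0.98 (adjusted p = 0.031). The effect was larger without the ovary for these last genes, at 6.18 against 4.56 for CG1304 and at 2.92 against 0.52 for Cyp6a17.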

How the results depend on the processing

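The counts of 2679 higher and 2403 lower genes stayed within 1.5 times of themselves in every alternative run except centring on muscle and photoreceptor genes, which gave 4082 and 1306, of which 2679 and 1304 were the same genes. That centring, median centring and quantile normalization turned 13, 6 and 2 called genes to a call in the opposite direction. The corpora allata part, 484 genes, was called for 2122 without a fold threshold, 182 at 2-fold and 808 after muscle and photoreceptor centring. Leaving out 1 array at a time gave 2635 to 2689 higher genes, 2331 to 2405 lower genes, 452 to 496 genes with a corpora allata part and 5311 to 5363 with an ovary part. The methods' t-test called 2662 higher and 2359 lower genes unadjusted, and 2641 and 2306 after Benjamini-Hochberg adjustment. It and the fit of 6 arrays gave no values for the parts. Deviations of same-numbered CAKO and ovoD mutant arrays correlated at 0.056, -0.0003 and 0.067, so the arrays share only a number. The replicate block gave 2680 and 2395 genes, 476 with a corpora allata part and 5336 with an ovary part. No gene named above changed sign while called.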
